A study of Homo sapiens with 2 samples.

Results

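Carbonic anhydrases convert carbon dioxide and water to bicarbonate and a proton, and back. The 9 genes described here are CA1, CA2, CA4, CA7, CA8, CA9, CA11, CA12 and CA13, a set of cytosolic and membrane enzyme genes of the human family together with 2 genes whose proteins have lost the enzyme activity. They were taken by gene symbol, 1 row each, from tables of 56586 genes. RNA had been sequenced in 2 libraries, PJ and PF, of the human colon cancer line HCT116, an established line of epithelial cells, grown untreated in medium with fetal bovine serum. The submitters call the libraries biological replicates of 1 group and do not say what the letters stand for, and separate cultures are not described. The design text also points to normal colon, which was not analysed here, so each comparison is between genes or between the replicates.

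In the colon, cytosolic carbonic anhydrases of surface epithelial cells supply bicarbonate and protons to the exchangers that absorb salt, and CA1, CA2 and CA4 are known as genes of mature absorptive colonocytes. CA9 and CA12 place their catalytic domain outside the cell, and CA9 in particular is known to be induced by the hypoxia-inducible factor HIF1. CA8 and CA11 lack zinc-binding residues of the active site and are called carbonic anhydrase-related proteins.

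Levels are given in FPKM, a count of fragments divided by transcript length and by the library total, which allows genes of different length to be compared. The deposited 95% bounds describe the precision of an estimate within 1 library and leave out variation between cultures. Expressed means that both libraries reached 1 FPKM. The depth of the libraries is unknown. Over the 14404 expressed symbols the median ratio of PJ over PF was 1.19, so a gene with a ratio near that value moved with the rest. Of 7 epithelial markers 6 were expressed, all but VIL1, and EPCAM was at 143 FPKM in PJ and 213 in PF. The libraries also differed in epithelial genes, and the cadherin gene CDH1 stood at 1.80 FPKM in PJ and 21.9 in PF; whether that difference bears on the carbonic anhydrase genes was not tested. Of 8 markers of fibroblasts, leukocytes and endothelium 1 was expressed, the collagen gene COL1A1, at 2.93 FPKM in PJ and 7.28 in PF. The red cell genes HBB and ALAS2, whose lineage also carries CA1 and CA2, were both under 0.1 FPKM in both libraries.

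HCT116 cells expressed 4 of the 9 genes: the cytosolic enzyme genes CA2 and CA13, the membrane enzyme gene CA12 and the related-protein gene CA11. Among all symbols with a value in both libraries 27.9% were expressed, and among protein-coding symbols 57.3%, so the 4 of 9 was no larger a share than that of protein-coding genes. CA8 passed 1 FPKM in PJ alone. CA1, CA4, CA7 and CA9 were under 1 FPKM in both libraries, and CA1, CA4 and CA7 were under 0.1 FPKM in both. Every one of the 9 had the status OK in both tables, so none of the low values is a failed estimate.

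**Figure D1:**
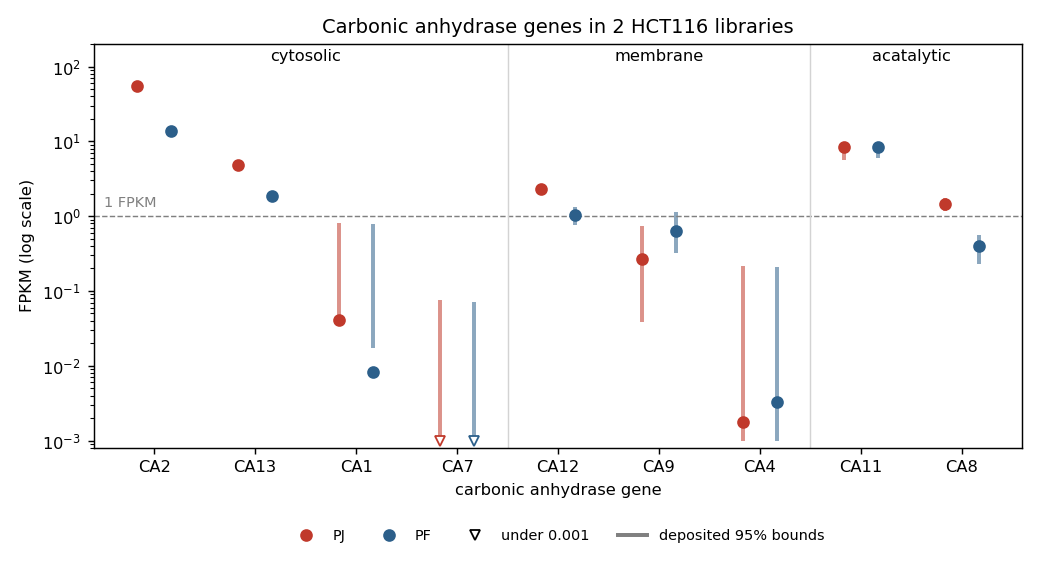
FPKM of each carbonic anhydrase gene on a log scale, grouped by the kind of protein; points are the estimates of library PJ (red, left) and PF (blue, right), vertical lines the deposited 95% bounds, and open triangles estimates under 0.001 FPKM. CA2 is the highest gene in both libraries, at 54.7 FPKM in PJ and 13.7 in PF, and the bounds of the lowest genes, CA1, CA4 and CA7, reach far above their estimates.

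CA2 (ENSG00000104267.4; hg19, chromosome 8, 86376081 to 86393693) encodes the fast and widely expressed cytosolic enzyme. It stood at 54.7 FPKM in PJ, with bounds of 52.6 to 57.7, and at 13.7 FPKM in PF, with bounds of 12.4 to 15.0. The bounds of the libraries did not overlap, and PJ was 4.0 times PF, or 3.37 times after the median ratio of expressed symbols was divided out. In PJ 89.2% of protein-coding symbols were lower than CA2, and in PF 71.2% were lower. In bulk RNA, fewer cells that hold the transcript and less transcript per cell cannot be told apart. CA2 led the 9 genes in both libraries, but its lead over the next of them, CA11, was 6.47-fold in PJ and 1.64-fold in PF.

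CA13 (ENSG00000185015.3; chromosome 8, 86132816 to 86196302), a cytosolic enzyme gene that shares its chromosomal neighbourhood with CA2, was at 4.81 FPKM in PJ (bounds 3.99 to 5.14) and 1.88 in PF (1.59 to 2.18). It was higher in PJ as well, 2.56-fold, with bounds apart. CA1 (ENSG00000133742.9; chromosome 8, 86239837 to 86291243), the abundant enzyme of red cells and of colon surface epithelium, was at 0.0404 FPKM in PJ and 0.00834 in PF. Its bounds ran up to 0.813 in PJ and 0.778 in PF, and in PF the estimate lay below its own lower bound of 0.0175, so the difference between the libraries cannot be read. CA7 (ENSG00000168748.9; chromosome 16, 66878282 to 66888056), a cytosolic enzyme gene, was at 2.59e-53 FPKM in PJ, which is 0 in all but notation, and listed at 0 in PF. The upper bounds for CA7 were 0.0745 FPKM in PJ and 0.0721 in PF. CA7 lies wholly within the span of NAE1, a gene on the opposite strand that was at 132 FPKM in PJ and 119 in PF.

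Among the genes of membrane enzymes, CA12 (ENSG00000074410.9; chromosome 15, 63613577 to 63674360), a transmembrane enzyme gene, was the highest. It stood at 2.31 FPKM in PJ, with bounds of 1.95 to 2.69, and at 1.04 FPKM in PF, with bounds of 0.753 to 1.33. The bounds were apart, but the lower bound in PF fell under the threshold of 1 FPKM, so that CA12 was only just counted as expressed. CA9 (ENSG00000107159.8; chromosome 9, 35673853 to 35681156), the hypoxia-induced transmembrane enzyme gene, was at 0.271 FPKM in PJ (0.0387 to 0.739) and 0.632 in PF (0.325 to 1.13). CA9 was the lower of this pair of genes in both libraries, though in PF its bounds overlapped those of CA12, and its own bounds overlapped between the libraries. The first 2011 bases of the CA9 span overlap the span of ARHGEF39, a gene on the opposite strand that was at 18.9 FPKM in PJ and 3.14 in PF. Whether the counting used strand is not given in the sources used here, so reads in the shared stretch may have been assigned to either gene. CA4 (ENSG00000167434.5; chromosome 17, 58227297 to 58248260), whose enzyme is held to the apical membrane by a lipid anchor, was at 0.00178 FPKM in PJ and 0.00327 in PF, with upper bounds of 0.216 in PJ and 0.211 in PF.

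The promoter windows of CA9 and CA12 are shown because these members are known as hypoxia-responsive and were the membrane enzyme genes nearest to the threshold of 1 FPKM. Each runs from 250 bases before to 50 bases after the RefSeq start (GRCh38.p14), 5′ to 3′ along the gene's strand. CA9 is at chr9:35673678-35673977 on the plus strand and CA12 at chr15:63381797-63382096 on the minus strand. Capitals mark the core letters of hypoxia response elements, ACGTG or GCGTG, read on either strand (CACGT and CACGC are their reverse complements).
CA9: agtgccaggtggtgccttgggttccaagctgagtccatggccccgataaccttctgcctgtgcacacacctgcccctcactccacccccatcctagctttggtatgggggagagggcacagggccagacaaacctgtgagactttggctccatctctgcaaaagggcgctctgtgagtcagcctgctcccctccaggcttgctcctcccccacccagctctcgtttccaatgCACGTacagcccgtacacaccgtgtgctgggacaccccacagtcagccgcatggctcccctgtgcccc
CA12: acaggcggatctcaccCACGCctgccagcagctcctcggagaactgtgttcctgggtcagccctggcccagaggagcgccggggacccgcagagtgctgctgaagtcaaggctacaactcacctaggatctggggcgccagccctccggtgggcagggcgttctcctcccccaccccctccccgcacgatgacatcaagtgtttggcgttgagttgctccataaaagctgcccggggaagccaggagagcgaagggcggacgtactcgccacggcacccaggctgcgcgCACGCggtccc
The CA9 window held 1 match, to ACGTG on the reverse strand, that begins 18 bases before the start. The CA12 window held none to ACGTG and 2 to GCGTG on the reverse strand, 1 of them beginning 234 bases before the start. Such short cores are common: ACGTG was found in 21.4%, GCGTG in 36.5% and either of them in 48.4% of all 35116 promoter windows in the RefSeq table. The cores do not overlap each other in these windows, and GCGTG was added after values were seen. A match is a description of the letters and does not show that a factor binds. The windows also differed in CpG content, with a CpG observed over expected ratio of 0.25 for CA9 and 0.66 for CA12, against a median of 0.58 over all windows. CA7, the only other member with windows, had 2 of them, with ratios of 0.71 and 0.85, although the gene was at or next to 0. The CA7 window with 0.85 also held 3 matches to GCGTG, and the other held none to either core. The cores were thus not particular to CA9 and CA12.

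CA11 (ENSG00000063180.4; chromosome 19, 49141199 to 49149569) encodes a secreted related protein without carbonic anhydrase activity. It was at 8.46 FPKM in PJ and 8.34 in PF, second to CA2 in each library and the steadiest of the 4 expressed members, with a ratio of PJ over PF of 1.01. Relative to the median shift of all expressed symbols that ratio was 0.86. Both estimates lay above their own upper bounds, which were 7.64 FPKM in PJ and 7.94 in PF, so the level of CA11 is uncertain beyond the width of those bounds. CA11 shares 8242 bases of its span with the pseudogene SEC1P on the opposite strand, which was at 0.0512 FPKM in PJ and 0.135 in PF. CA8 (ENSG00000178538.5; chromosome 8, 61099906 to 61193971), whose protein binds the inositol trisphosphate receptor in place of catalysis, was at 1.45 FPKM in PJ (1.15 to 1.76) and 0.398 in PF (0.228 to 0.567). Its bounds were apart and its ratio was 3.66, close to that of CA2, but its mean of 0.926 FPKM kept it out of the count of differences below.

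The order of the 9 genes was almost the same in both libraries. In PJ the order CA2, CA11, CA13, CA12, CA8 and CA9 had bounds apart at every step, and CA9, CA1, CA4 and CA7 below them overlapped from one to the next. In PF the steps from CA2 to CA11, CA13 and CA12 had bounds apart, but CA12, CA9, CA8, CA1, CA4 and CA7 overlapped from one to the next. CA8 and CA9 were the only genes to change places: CA8 was 5.36 times CA9 in PJ with bounds apart, whereas CA9 was 1.59 times CA8 in PF with bounds that overlapped.

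Summed over the 9 genes the level was 72.1 FPKM in PJ and 26.0 in PF. CA2 made up 75.9% of that sum in PJ and 52.7% in PF, and CA11 made up 11.7% in PJ and 32.1% in PF. Without CA2 the sums were 17.4 FPKM in PJ and 12.3 in PF, a ratio of 1.41, against 1.19 for the median expressed symbol. The 3 genes of membrane enzymes together gave 2.59 FPKM in PJ and 1.67 in PF, or 3.59% of that sum in PJ and 6.45% in PF. The 4 cytosolic enzyme genes made up 82.7% of the sum over the 9 in PJ and 59.9% in PF. The 2 acatalytic genes made up 13.8% in PJ and 33.6% in PF. Most of the acatalytic share was CA11, whose estimates lay above their own upper bounds in both libraries, so these shares are uncertain. Other carbonic anhydrase genes, such as CA5B, are outside this sum.

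Differences between the replicates were counted on the scale of log2(FPKM + 1), which understates the change of low genes, among symbols averaging at least 1 FPKM. Of the 4 such members, 2 were higher in PJ by 2-fold or more, CA2 with a log2 ratio of 1.93 and CA13 with 1.01, and 0 were 2-fold lower. Over all 15736 symbols with that mean, 10.4% were 2-fold higher in PJ and 5.22% were 2-fold lower. CA12 had a log2 ratio of 0.70, although its plain ratio of PJ over PF was 2.23, and with pseudocounts of 0.1 and 0.01 its log2 ratio was 1.08 and 1.15. CA11 had a log2 ratio of 0.02. CA13 lay at the edge of the 2-fold limit, and once the median ratio was divided out CA2 alone remained beyond it. The shares of all symbols were not recounted with that scaling. The deposited bounds were apart for 3 of the 4, CA2, CA13 and CA12, all higher in PJ. That rule called 44.5% of all such symbols higher in PJ and 18.2% lower, so bounds apart are common between these libraries. A single library stands on each side, so no p-value was computed. The submitters call the libraries replicates of 1 group. Possible sources of the differences, such as the cultures or their preparation, cannot be told apart.

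**Figure D2:**
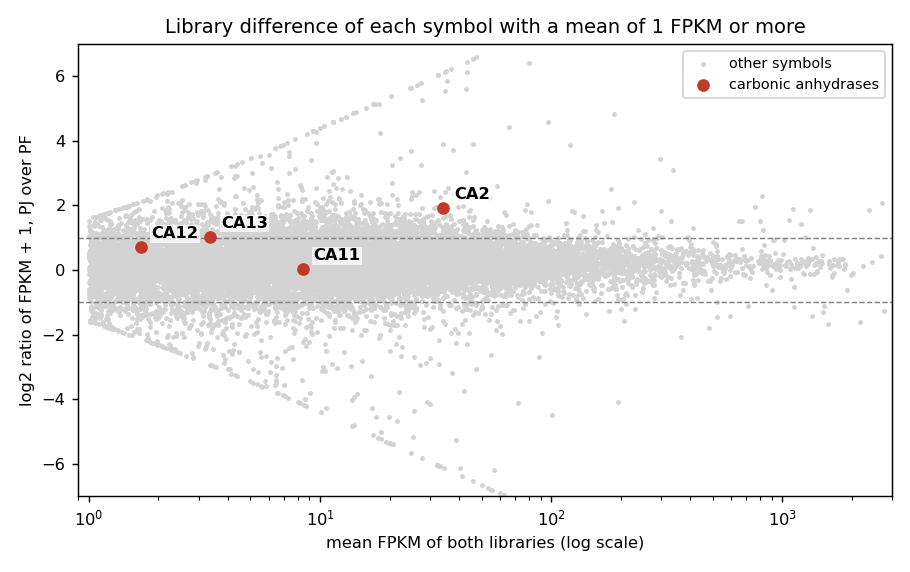
Log2 ratio of FPKM + 1, PJ over PF, against the mean FPKM of both libraries on a log scale; grey points are symbols averaging at least 1 FPKM, red points the carbonic anhydrases among them, dashed lines mark 2-fold, and 72 symbols lie outside the axes. CA2 (1.93) stands above the 2-fold line, CA13 (1.01) on it, and CA12 (0.70) and CA11 (0.02) within the bulk of genes.

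CA13, CA1, CA3 and CA2 lie side by side on chromosome 8, over 261 kb, in that order from the CA13 end. An expressed gene stood at either end of the cluster, with low genes between them: CA3, a muscle enzyme gene that is not among the 9, was at 0.260 FPKM in PJ and 0.120 in PF. Even the lower bound of CA2 was 64.7 times the upper bound of CA1 in PJ and 16.0 times in PF. CA13 and CA2, the expressed genes of the cluster, were higher in PJ with bounds apart. The estimates of CA1 and CA3 were also higher in PJ, but their bounds overlapped, and that of CA1 cannot be read as a difference. The flanking genes on the CA13 side were also higher in PJ, C8orf59 with 176 FPKM in PJ and 109 in PF and the cell cycle transcription factor gene E2F5 with 5.97 in PJ and 3.66 in PF, while LRRCC1 beyond them had a ratio of 1.17. Of the 13 rows above 0 from 100 kb before the cluster to 100 kb after it, 12 had the higher estimate in PJ, CA1 and several others next to 0 among them, against 54.4% of all symbols above 0 in at least 1 library. The 13 rows include CA2, CA13 and CA1 themselves and rows that overlap them. The 500 expressed symbols of chromosome 8 had a median ratio of 1.19, the same as the 1.19 of all expressed symbols. Of 5 other expressed rows within 1 Mb of the cluster, 4 were higher in PJ, and the 5 ratios ran from 0.77 to 8.22. C8orf59, E2F5 and LRRCC1 are among these 5 and also among the 13, so the counts are not separate. The share of expressed symbols higher in PJ was not counted. What lay behind the difference at the cluster was not tested. Spans overlap within the cluster. CA1 and CA3, on opposite strands, share 5579 bases. The antisense gene RP11-317J10.2 overlaps 1064 bases of CA2 and was at 0.205 FPKM in PJ and 0.0520 in PF. The antisense gene RP11-219B4.5 overlaps 23272 bases of CA13 and was at 0.234 FPKM in PJ and 0.0274 in PF.

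**Figure D3:**
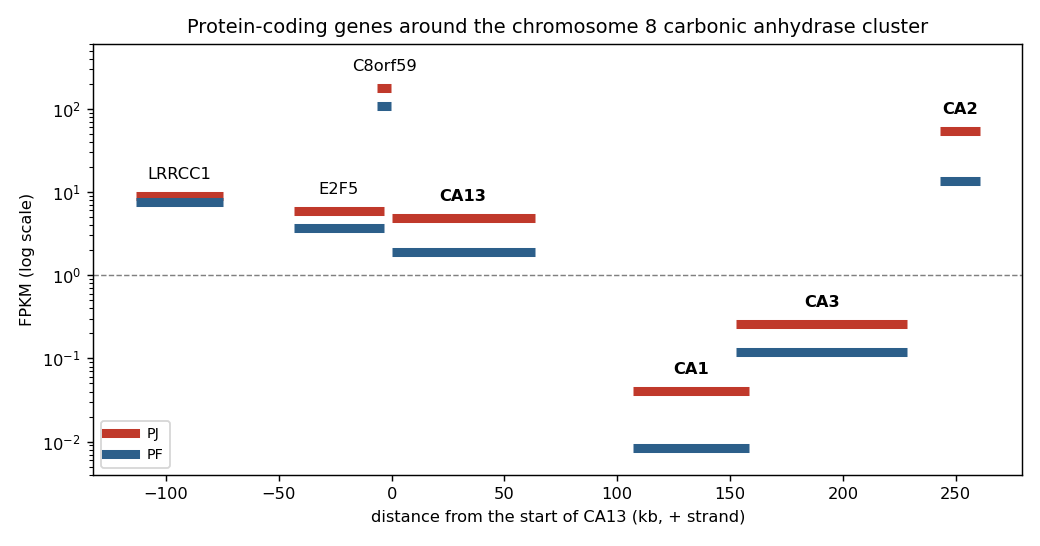
Protein-coding genes within 100 kb of the chromosome 8 cluster, drawn as bars along the distance from the start of CA13 in kb, at the height of their FPKM on a log scale, in PJ (red) and PF (blue). CA13 and CA2 at the ends are above 1 FPKM (dashed line) in both libraries, and CA1 and CA3 between them are below it, with the PJ bar above the PF bar for each of the 7 genes.

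Of the other carbonic anhydrase genes, 6 encode proteins and 1 of these was expressed. CA5B, a mitochondrial enzyme gene on the X chromosome, stood at 3.01 FPKM in PJ (2.03 to 3.64) and 2.72 in PF (1.74 to 3.20), with overlapping bounds. Its pseudogene CA5BP1, which overlaps it in the tables, was at 9.62 FPKM in PJ and 3.52 in PF; reads of such near copies may be shared between them, and both values are uncertain. CA14, a transmembrane enzyme gene, was at 0.115 FPKM in PJ (0.0577 to 0.191) and 0.329 in PF (0.226 to 0.434), lower in PJ with bounds apart. The mitochondrial CA5A, the secreted salivary CA6 and the acatalytic brain gene CA10 were all under 0.01 FPKM in both libraries, as was the pseudogene CA5AP1. The pseudogene CA15P1 stood at 0.0160 FPKM in PJ and 0.00788 in PF, and CA15P2 at 0.0169 in PJ and listed at 0 in PF. Together with the 9 members, 5 of 15 coding genes of the family were expressed, against 57.3% of all protein-coding symbols.

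The genes known to accompany CA1, CA2 and CA4 in mature absorptive colonocytes were not expressed beside CA2. Of 10 such genes 0 reached 1 FPKM in both libraries, against 57.3% of all protein-coding symbols. KRT20, a keratin gene of surface cells, came closest at 0.480 FPKM in PJ and 1.10 in PF. The water channel gene AQP8 was at 0.256 FPKM in PJ and 0.145 in PF, the gene SLC9A3, for an apical sodium-proton exchanger, at 0.137 in PJ and 0.286 in PF, and the channel gene BEST4 at 0.152 in PJ and 0.167 in PF. The chloride-bicarbonate exchanger gene SLC26A3 was at 0.00855 FPKM in PJ and 0.00858 in PF. MS4A12 and CEACAM7 were under 0.01 FPKM in both, and the guanylin genes GUCA2A and GUCA2B and the fatty acid binding gene FABP1 were listed at 0 in both.

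Genes for the transport of bicarbonate, protons and lactate, with the helper genes BSG and SLC9A3R1 among them, were expressed in 13 of 33 cases. The share of all protein-coding symbols was 57.3%. The 33 include SLC9A3, BEST4 and SLC26A3 of the colonocyte genes above, so the counts of these lists are not separate. The highest of the 33 was BSG, which encodes the chaperone of lactate transporters, at 465 FPKM in PJ and 417 in PF. The lactate transporter gene SLC16A3 followed at 153 FPKM in PJ and 120 in PF, and SLC9A3R1, for an exchanger scaffold, at 89.8 in PJ and 82.7 in PF. SLC16A1, a second lactate transporter gene, was at 58.8 FPKM in PJ and 47.0 in PF. SLC4A2, the widely expressed chloride-bicarbonate exchanger gene, stood at 51.4 FPKM in PJ and 79.5 in PF, whereas its red cell relative SLC4A1 was at 0.101 in PJ and 0.0146 in PF. SLC4A10, a neuronal bicarbonate transporter gene, had the lowest mean of the list, at 0.00381 FPKM in PJ and 0.00504 in PF. None of the 13 was 2-fold apart between the libraries, and their median log2 ratio was -0.17, against 0.22 over all expressed symbols. Bounds were apart in both directions: SLC4A2, SLC4A7 and SLC4A11 were lower in PJ, and BSG, SLC16A3 and SLC16A1 were higher. The SLC16A1 estimate in PF lay above its own upper bound of 46.3 FPKM.

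**Figure D4:**
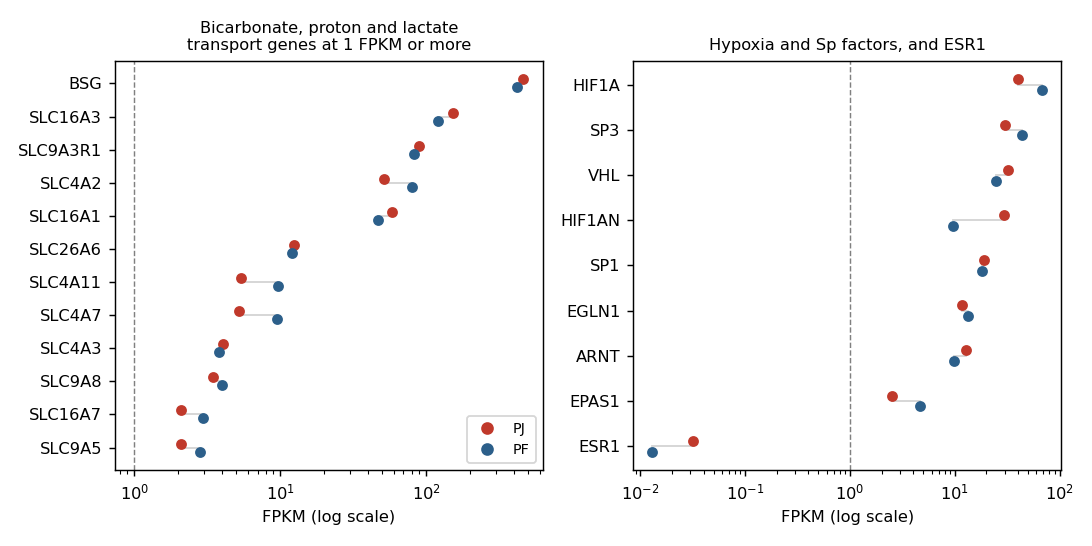
FPKM on a log scale in PJ (red) and PF (blue) of 12 of the 13 expressed transport genes (left) and of the factors known to act on CA9 and CA12 (right); the dashed line marks 1 FPKM. No transport gene drawn is 2-fold apart on the log2(FPKM + 1) scale, and among the factors HIF1AN is, at 29.5 FPKM in PJ and 9.69 in PF.

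Genes that HIF1 is known to induce were expressed in 14 of 14 cases, against 57.3% of all protein-coding symbols. The list was chosen with earlier results of these data known, so the count is a description and not a test. Of the hypoxia-responsive members, CA12 was expressed and CA9 was not. The upper bound of CA9 in PF, 1.13 FPKM, passed the threshold. The glycolytic genes ENO1, ALDOA, LDHA and PGK1 led the list. ENO1 was at 1510 FPKM in PJ and 1416 in PF, and ALDOA at 1161 in PJ and 1027 in PF. LDHA was at 662 FPKM in PJ and 487 in PF, and PGK1 at 417 in PJ and 316 in PF. Estimates of ENO1 and PGK1 lay above their own upper bounds in both libraries. ALDOA lay below its own lower bound in both, as LDHA did in PJ. The lowest were EGLN3, a prolyl hydroxylase gene, at 1.23 FPKM in PJ and 1.27 in PF, and ANKRD37, at 3.20 FPKM in PJ and 1.82 in PF. ADM, the gene of the peptide hormone adrenomedullin, was the only one 2-fold apart, at 6.09 FPKM in PJ and 29.8 in PF. The median log2 ratio of the 14 was 0.21, near the 0.22 of all expressed symbols. Many of these genes are also known to be expressed in dividing cells without hypoxia.

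The factors known to act on CA9 and CA12 were present except for the oestrogen receptor gene ESR1, which is known to drive CA12 in breast and stood at 0.0316 FPKM in PJ and 0.0130 in PF. HIF1A, the oxygen-regulated subunit gene, was at 39.8 FPKM in PJ and 67.6 in PF, its relative EPAS1 at 2.51 in PJ and 4.70 in PF, and their partner ARNT at 12.8 in PJ and 9.89 in PF. Both HIF1A estimates lay above their own upper bounds, 38.8 FPKM in PJ and 62.3 in PF, so its level is uncertain beyond the width of those bounds. Of the genes whose products mark HIF for breakdown, VHL was at 32.3 FPKM in PJ and 24.6 in PF, and EGLN1 at 11.6 in PJ and 13.2 in PF. HIF1AN, whose product blocks the activating domain of HIF, was at 29.5 FPKM in PJ and 9.69 in PF, with bounds apart and a log2 ratio of 1.51. It was the only one of the 8 expressed factors 2-fold apart on that scale, and ESR1 was too low to be counted. The general transcription factor genes SP1 and SP3 were also expressed, SP1 at 18.9 FPKM in PJ and 18.3 in PF and SP3 at 30.4 in PJ and 43.5 in PF. Against these, CA12 was higher in PJ and CA9 had overlapping bounds. HIF1A, EPAS1 and SP3 were lower in PJ with bounds apart, and ARNT, VHL and HIF1AN were higher with bounds apart. With 2 libraries no relation among them was computed, and HIF activity is set mainly at the protein level, which was not measured.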

How the data were processed

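RNA of 2 HCT116 libraries, PJ and PF, was analysed from 1 deposited table each. The authors deposited FPKM per gene with lower and upper 95% bounds and a status, per the file headers. TopHat2 2.0.8b, TopHat and Cufflinks with the hg19 genome are named in the submitters' processing notes; no Cufflinks version, annotation release or strand setting is given in the sources used here. Per the labels' protocols, paired-end libraries were made with a TruSeq kit. FPKM is scaled to the library total, so abundant RNAs can shift all other values. Depth is unknown, so no counting interval was computed.

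Estimates with status FAIL (20 rows in PJ, 23 in PF) were treated as missing, and rows sharing a symbol were summed. Starts are counted from 1. Gene types and strands came from GENCODE release 29 by identifier, for 88.7% of rows. Differences are log2 ratios, PJ over PF, with a pseudocount of 1, among symbols averaging at least 1 FPKM; no test was possible with 1 library a side. The counting functions were checked on simulated data.

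All members are named, with every other family gene in the tables, all factors and colonocyte genes, and of the transport and hypoxia lists the 4 highest, the lowest and those 2-fold apart at a mean of 5 FPKM or more. SLC4A1, SLC4A7, SLC4A11, SLC16A1, ANKRD37 and the pseudogene CA5AP1 were added after their values were seen, as was the motif GCGTG. Overlapping and flanking genes are named where a result touches them. CA15P3 was not used here, and some listed genes are not reported here. Members and lists were chosen with earlier results of these data known. Alternatives were other thresholds, pseudocounts, filters, scalings and each library alone. Python 3.11.15, numpy 2.4.6 and pandas 2.3.3 were used.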

Additional observations from a re-analysis of the deposited data

How the results depend on the processing

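Of 37 alternative counts and 36 alternative log2 ratios, 57 in all stayed on the same side or within the limits set for them, 14 moved and 2 changed sign. The 57 include every log2 ratio of CA7, which is 0 under any setting because the gene had no level to compare. They also include counts that rose from 4 to 6 and from 2 to 3, so the tally does not measure how firm the results are. The 4 expressed members became 2 at a threshold of 5 FPKM (CA2 and CA11) and 1 at 10 FPKM (CA2); with 1 library left out at a time the count ran between 4 (PF alone) and 5 (PJ alone, with CA8), a threshold on the lower bound gave 3, without CA12, and a threshold of 0.1 FPKM gave 6. The 2 members at least 2-fold higher in PJ became 1, CA2, after scaling by the median ratio, after scaling by the 75th percentile, and with a filter at a mean of 5 FPKM; with pseudocounts of 0.1 and 0.01 it was 3, with CA12. The 2 other family genes expressed, CA5B and CA5BP1, became 0 at 5 FPKM. The log2 ratio of CA11 was 0.02 as deposited and -0.20 under both scalings, so its direction depends on the scaling. With pseudocounts of 0.1 and 0.01 the log2 ratio of CA8 was 1.64 and 1.85 and that of CA9 was -0.98 and -1.19, both farther from 0 than with a pseudocount of 1. Members with bounds apart stayed at 3 after scaling and were 4, with CA8, without a filter, an alternative chosen after seeing the data. Shares of all symbols were not counted under the alternative settings, so these member counts have no background beside them. No paired analysis was possible because there is 1 group. Unknown depth limits what can be said of CA1, CA4 and CA7, whose upper bounds lie far above their estimates.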

Other observations

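The surroundings of the members differed. CA9 ends 832 bases before the next gene in the tables, the tropomyosin gene TPM2, which was at 328 FPKM in PJ and 193 in PF. Within 100 kb of CA9, 9 of the 11 protein-coding genes were expressed, against 57.3% of all protein-coding symbols. The rows nearest to CA4 on either side, CTD-2319I12.5 and CTD-2319I12.7, were listed at 0 in both libraries. The nearest protein-coding genes there were HEATR6, at 14.3 FPKM in PJ and 11.1 in PF, and the deubiquitinase gene USP32, at 14.7 in PJ and 8.41 in PF. CA11 lies 503 bases from DBP, a clock output transcription factor gene, which was at 12.2 FPKM in PJ and 26.3 in PF while CA11 was nearly equal in the libraries. APH1B, the coding gene nearest to CA12, was at 2.37 FPKM in PJ and 1.14 in PF, close to the values of CA12 itself in each library. CA8 has no protein-coding gene within 100 kb in the tables, and the 1 row there was listed at 0 in both libraries. No relation between neighbouring levels was tested.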
